A study of Mus musculus with 8 samples.

Results

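The 9 genes described here encode transcription factors of the interferon regulatory factor (IRF) and signal transducer and activator of transcription (STAT) families and 1 of their inhibitors. They are Irf1, Irf4, Irf5, Irf7, Irf8, Stat2, Stat3, Stat6 and Socs3, taken by symbol from the 23413 symbols of the count table, and all 9 were found. Their mRNA was measured by RNA-seq in tumor-associated macrophages (TAMs) of 8 mice, 1 library per mouse. The animals were male C57BL/6 mice of 8 to 10 weeks with subcutaneous B16F10 tumors, a mouse melanoma line, and they were dosed on days 6 and 12 after engraftment. DMSO, the vehicle, was given to 2 mice by a route that the sources used here do not state. Thiostrepton, a thiopeptide antibiotic, was given by intraperitoneal (I.P.) injection to 4 mice. The sources name more than 1 I.P. dose for this tumor model and do not say which these mice received. It was given by subcutaneous (S.C.) injection beside the tumor to 2 mice at 20 mg/kg, the group that the labels call IS. Each tumor was sorted on day 18 for CD45+F4/80+CD11b+Gr-1- events, so the gate sets which cells could be seen, and nothing was measured at an earlier time.

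STAT proteins lie in the cytoplasm until a cytokine receptor and its JAK kinases phosphorylate them, after which they pair, enter the nucleus and bind DNA. STAT3 responds to IL-6, IL-10, oncostatin M, LIF and G-CSF, STAT6 responds to IL-4 and IL-13, and STAT2 acts in ISGF3, the complex formed downstream of type I interferon. Among the IRF proteins, IRF5 and IRF7 act downstream of Toll-like and nucleic acid receptors, IRF1 is induced by interferon-gamma, IRF8 is a lineage factor of monocytes and macrophages, and IRF4 is linked to the response to IL-4. SOCS3 is induced by STAT3 and blocks gp130 and the G-CSF receptor, so its mRNA is often read as a sign of recent STAT3 activity. Activation of these proteins is largely post-translational, and mRNA levels do not show it.

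The sequences at which these factors act lie partly in their own promoters. RefSeq windows of the 250 bases before the start (GRCm38.p6) were found for all 9 genes, 11 windows in all, and were searched on both strands. The STAT element GAS was searched as TTCNNNGAA, which reads the same on both strands. It was present in 3 of the 11 windows, against 7.02% of 32851 windows of all genes. These windows belong to 3 of the 9 genes, Irf1, Irf8 and Socs3. The interferon element ISRE, searched as GAAANNGAAA or TTTCNNTTTC, was present in 1 of the 11 windows, that of Stat2, against 2.98% of all windows. The ETS-IRF element EICE, at which IRF4 and IRF8 bind beside an ETS factor, was searched as GGAANNGAAA or TTTCNNTTCC. It was also present in 1 of the 11 windows, again that of Stat2, where it overlaps the ISRE, against 2.3% of all windows. The windows that held any of the 3 elements are printed below in the direction of transcription, with the matched bases in capitals, since 2 of them belong to Irf1 and Socs3, whose mRNA is described first. The match begins 90 bases before the start in Irf1, 154 in Socs3, 171 and 153 in Irf8, and 222 (ISRE) and 216 (EICE) in Stat2. The Socs3 window is printed without the 85 bases next to the start, which overlap an annotated exon. Further windows of Irf1 and Irf8, at a second start, held none of the 3.
Irf1, chr11:53769764-53770013, plus strand: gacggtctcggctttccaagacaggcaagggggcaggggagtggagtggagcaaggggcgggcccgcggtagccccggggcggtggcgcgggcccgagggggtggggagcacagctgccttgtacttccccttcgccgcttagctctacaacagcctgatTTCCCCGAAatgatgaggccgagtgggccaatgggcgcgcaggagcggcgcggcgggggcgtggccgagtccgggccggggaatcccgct
Socs3, chr11:117969452-117969616, minus strand: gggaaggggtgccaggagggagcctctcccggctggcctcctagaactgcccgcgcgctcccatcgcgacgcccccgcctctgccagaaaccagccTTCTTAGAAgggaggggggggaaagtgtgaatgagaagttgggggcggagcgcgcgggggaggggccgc
Irf8, chr8:120736108-120736357, plus strand: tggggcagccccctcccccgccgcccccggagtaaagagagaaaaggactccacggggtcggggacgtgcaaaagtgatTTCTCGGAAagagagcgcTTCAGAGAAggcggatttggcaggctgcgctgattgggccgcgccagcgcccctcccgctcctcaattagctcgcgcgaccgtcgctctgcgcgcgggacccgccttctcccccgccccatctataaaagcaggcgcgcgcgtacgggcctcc
Stat2, chr10:128270248-128270497, plus strand: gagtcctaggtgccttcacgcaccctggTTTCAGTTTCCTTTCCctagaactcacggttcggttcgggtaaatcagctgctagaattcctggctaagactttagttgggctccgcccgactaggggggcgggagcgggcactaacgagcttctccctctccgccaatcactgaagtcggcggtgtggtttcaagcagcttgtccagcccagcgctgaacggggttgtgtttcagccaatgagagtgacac
A match is a run of letters and does not show that a factor was bound.

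Library totals ran from 14127506 to 17577466 counts. A level is given as CPM, the counts scaled to a common library total, with TMM scaling over the 8 libraries. A difference between groups is a log2 fold change with its standard error (SE), fitted by edgeR to the counts of the pair of groups. A gene was called when its unadjusted P was under 0.05 and its change was at least 2-fold, the criterion of the study's methods. The smallest p that an exact two-sided permutation test of 1 gene allows is 0.333 for 2 mice against 2 and 0.133 for 4 against 2. After Benjamini-Hochberg adjustment over all genes, 0 genes had an adjusted p under 0.05 by edgeR's quasi-likelihood test in any of the 3 comparisons, although 418, 632 and 1049 genes had an unadjusted P under 0.05 in I.P. against DMSO, S.C. against DMSO and S.C. against I.P. mice. For the same comparisons the likelihood ratio test gave 10, 179 and 265 genes and DESeq2 19, 107 and 234 at an adjusted p under 0.05. Of the members, Socs3 was among them, in S.C. against DMSO mice.

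Some libraries stood apart. Of the 9328 genes whose mean was 5 CPM or more, 510 and 362 were at least 2-fold below all other mice in S.C. mice 1 and 2, and 315 in I.P. mouse 1, against 3 to 26 in the other 5 mice. The share of these genes with a count of 0 was 0.525% in S.C. mouse 1 and 0.364% in S.C. mouse 2, and 0.0107% to 0.129% elsewhere. The members' calls that rest on 1 of these mice are given with and without it. A fit that leaves 1 mouse in a group takes its spread from the other group. Without either S.C. mouse, many more of all genes were called against DMSO mice than with both.

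The macrophage label was checked against 10 marker genes, none of which was at 0 in any mouse. Their summed level was 25500 to 28000 CPM in DMSO, 24500 to 30200 CPM in I.P. and 34500 to 37800 CPM in S.C. mice. Lyz2 was its largest part, at 16400 and 15400, 13300 to 18400, and 21400 and 25100 CPM in the same order. Of the 10 genes, 1 was called lower and 0 higher in S.C. against DMSO mice, Mrc1, and 0 in I.P. against DMSO mice. Csf1r, Itgam and Emr1 were at 353, 103 and 361 CPM in S.C. mouse 1, and 1130, 384 and 1020 CPM in S.C. mouse 2. In the other mice they were at 505 to 791, 141 to 254 and 318 to 915 CPM. Markers of other cells were far lower in sum, and some differed between the groups. The neutrophil list summed to 186 and 198 CPM in DMSO, 135 to 194 in I.P., and 295 and 522 CPM in S.C. mice, with 6 of its 11 tested genes called higher in S.C. against DMSO mice and 1 of 9, Lcn2, in I.P. against DMSO mice. The monocyte list summed to 69.8 to 90.5, 10.4 to 35.7 and 97.7 to 127 CPM in the same order of groups, with 2 of 5 genes called higher in S.C. mice. In I.P. mice 1 of the 5 was called lower, Ccr2, which encodes the receptor for the chemokine CCL2 and was at 59.9 and 79.2 CPM in DMSO mice, 7.3 to 20.1 CPM in I.P. mice and 60.8 and 76.7 CPM in S.C. mice. The T and NK cell list summed to 2.13 to 17.4, 1.16 to 17.2 and 25.8 to 52.4 CPM, with 1 of 6 called higher in S.C. mice, and the B and plasma cell list to 38.6 to 76.5, 51.9 to 79.3 and 63.8 to 90.2 CPM, with 2 of 4 called higher in S.C. mice. The melanoma list summed to 597 to 667, 462 to 1670 and 701 to 2990 CPM, its highest value being S.C. mouse 1, with 3 of 7 called higher in S.C. mice. The dendritic cell list summed to 2.64 to 8.96, 2.42 to 6.95 and 9.54 to 30.7 CPM. The fibroblast and endothelial list summed to 2.24 to 3.26, 1.66 to 9.34 and 1.14 to 8.81 CPM. Against DMSO, 0 of 3 and 0 of 2 tested genes were called. In S.C. against I.P. mice 5 of 11 neutrophil, 2 of 5 monocyte and 3 of 7 T and NK cell genes were called higher. So were 2 of 4 B and plasma cell and 1 of 3 dendritic cell genes, against 2.41% of all genes. Of 10 macrophage, 7 melanoma and 2 fibroblast and endothelial genes, 0 were called there. The part of the other cells in the results below was not tested. In bulk RNA, fewer cells of a type and less RNA per cell cannot be told apart.

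Per kilobase of exon, the 9 genes spanned a wide range of levels. Irf5 was the most abundant at a mean of 97.7 CPM per kb over 8 mice (78.1 to 141), followed by Stat6 at 53.4 (32.7 to 76.4). Irf5 lay above Stat6 in 8 of 8 mice without overlap of the ranges. Irf8 (29.7), Irf1 (28), Irf7 (24.8), Socs3 (21.6) and Stat3 (15 CPM per kb) came next. These 5 changed places from mouse to mouse, with Irf1 above Irf7 in 4 of 8 mice and Socs3 above Stat3 in 4 of 8. Stat2 was lower at 5.82 CPM per kb, below Stat3 in 8 of 8 mice although the ranges overlap. Irf4 was the lowest at 0.402 CPM per kb (0.062 to 1.46), below Stat2 in 8 of 8 mice without overlap. The order was the same with the longest transcript as the length. The genes also differed in how far the mice lay apart, since the highest mouse was 1.52-fold above the lowest for Irf8, 1.81-fold for Irf5 and 2.34-fold for Stat6, but 6.35-fold for Stat3, 7.44-fold for Socs3, 7.84-fold for Irf1 and 23.5-fold for Irf4.

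**Figure D1:**
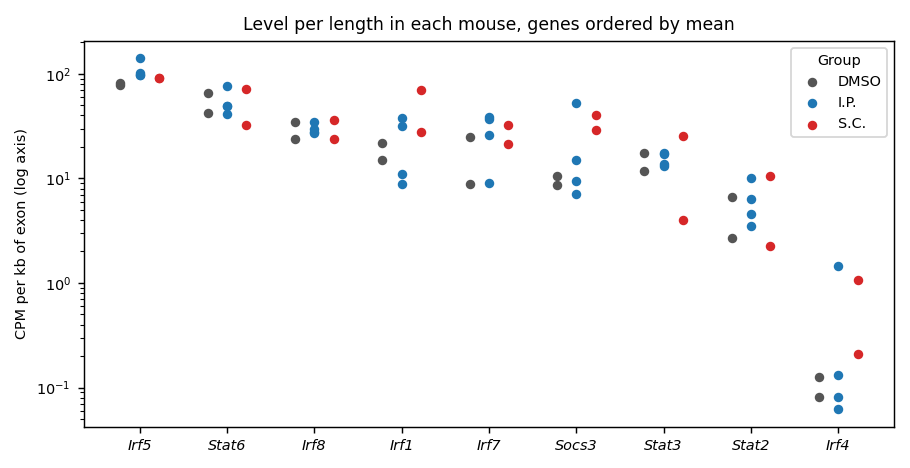
Level of the 9 genes in CPM per kilobase of exon (log axis), 1 point per mouse, genes ordered by their mean. Irf5 lies above the other genes in all 8 mice, Irf4 below them, and the genes from Irf8 to Stat3 overlap.

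Socs3 and Irf1 were the members called in S.C. against DMSO mice, both higher, and 0 of 9 were called lower. The same 2 members had an unadjusted P under 0.05, against 5.41% of all genes. Of all 11680 genes tested there, 5.06% were called, 2.29% higher (268 genes) and 2.77% lower (323), a split of 196 and 429 with library size as the only scaling. In I.P. against DMSO mice 0 of 9 members were called, against 2% of 12174 genes, and 0 of 9 had an unadjusted P under 0.05, against 3.43%. The 2 comparisons share the DMSO mice, and the direct comparison of the treated groups is S.C. against I.P. mice. The paper describes the S.C. dose as the lower one, so route and dose cannot be told apart. In S.C. against I.P. mice 0 of 9 members were called, against 7.05% of 12206 genes (2.41% higher and 4.64% lower). There 0 members had an unadjusted P under 0.05, against 8.59% of these genes. The median log2 fold change of the 9 genes was 0.39 in I.P. against DMSO, 0.45 in S.C. against DMSO and 0.01 in S.C. against I.P. mice, beside a median of 0.02 over all genes in each.

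**Figure D2:**
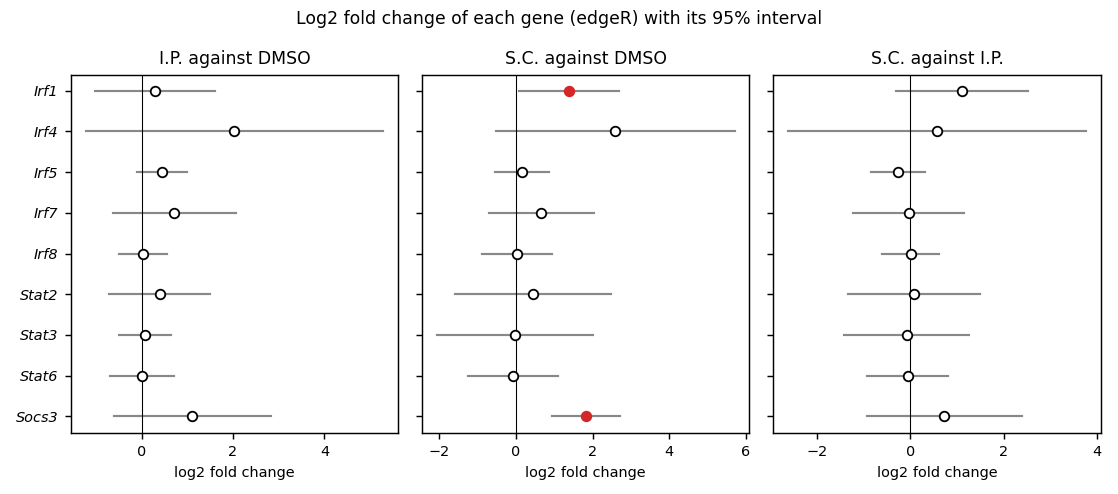
Log2 fold change of each of the 9 genes with its 95% interval in the 3 comparisons. Filled red points are called genes, which are Irf1 and Socs3 in S.C. against DMSO mice, and 0 members are called in the other 2 comparisons.

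Socs3 (chr11:117966079-117970047, minus strand, GRCm38) encodes the inhibitor that STAT3 induces. Its level was 30.7 and 25.2 CPM in DMSO mice, 152, 20.4, 43.2 and 27.0 CPM in I.P. mice, and 83.8 and 117 CPM in S.C. mice. Both S.C. mice lay above both DMSO mice, whereas of the I.P. mice 1 stood far above and the other 3 lay near the DMSO level. The S.C. mean of 100 ± 23.4 CPM (SD, n = 2) was 3.53-fold above the DMSO mean of 27.9 ± 3.9 CPM (SD, n = 2), a log2 fold change of 1.82 (SE 0.36, 95% interval 0.93 to 2.71). The unadjusted P was 0.00267, the 35th smallest of 11680, and the adjusted p was 0.747 by edgeR's quasi-likelihood test. The adjusted p was 0.00807 by the likelihood ratio test and 0.0041 by DESeq2. Without either S.C. mouse the log2 fold change was 1.53 (without mouse 2) and 2.04 (without mouse 1). Socs3 was not called when all 3 groups shared 1 fit (log2 1.85, unadjusted P = 0.0524).

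In I.P. mice the Socs3 mean was 60.7 ± 61.7 CPM (SD, n = 4), with a log2 fold change over DMSO of 1.10 (SE 0.76, 95% interval -0.62 to 2.83, adjusted p = 0.98 by edgeR). Without I.P. mouse 1 it was 0.12. S.C. over I.P. gave 0.73 (SE 0.73, 95% interval -0.93 to 2.39, adjusted p = 0.853 by edgeR's quasi-likelihood test). The interval is wide and includes 0, so the test cannot decide whether S.C. and I.P. mice differed for Socs3. Without I.P. mouse 1 the log2 fold change of S.C. over I.P. became 1.73 with an unadjusted P of 0.00266, past the call criterion.

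Irf1 (chr11:53770014-53778374, plus strand) encodes the factor that drives antigen-processing genes after interferon-gamma. It measured 86.2 and 59.2 CPM in DMSO mice, 126, 35.3, 152 and 43.7 CPM in I.P. mice, and 110 and 277 CPM in S.C. mice. The S.C. mice lay above both DMSO mice, S.C. mouse 1 by a small margin, while the I.P. mice fell into 2 above and 2 below the DMSO mice. The S.C. mean was 193 ± 118 CPM against 72.7 ± 19.1 CPM in DMSO mice (SD, n = 2 each), a 2.62-fold difference (log2 1.39, SE 0.52, 95% interval 0.09 to 2.69). The unadjusted P was 0.0401 and the adjusted p was 0.887 by edgeR. The call rested on S.C. mouse 2, without which the log2 fold change was 0.53 (unadjusted P = 0.146). It was also lost without DMSO mouse 2 (1.13, unadjusted P = 0.14), with library size as the scaling (1.23, unadjusted P = 0.0562) and with all 3 groups in 1 fit (1.41, unadjusted P = 0.0786). In I.P. against DMSO mice the log2 fold change was 0.29 (SE 0.58, adjusted p = 0.981), and S.C. over I.P. gave 1.11 (SE 0.62, 95% interval -0.30 to 2.53, adjusted p = 0.688), which passed the call criterion without I.P. mouse 3 (1.48, unadjusted P = 0.0465).

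**Figure D3:**
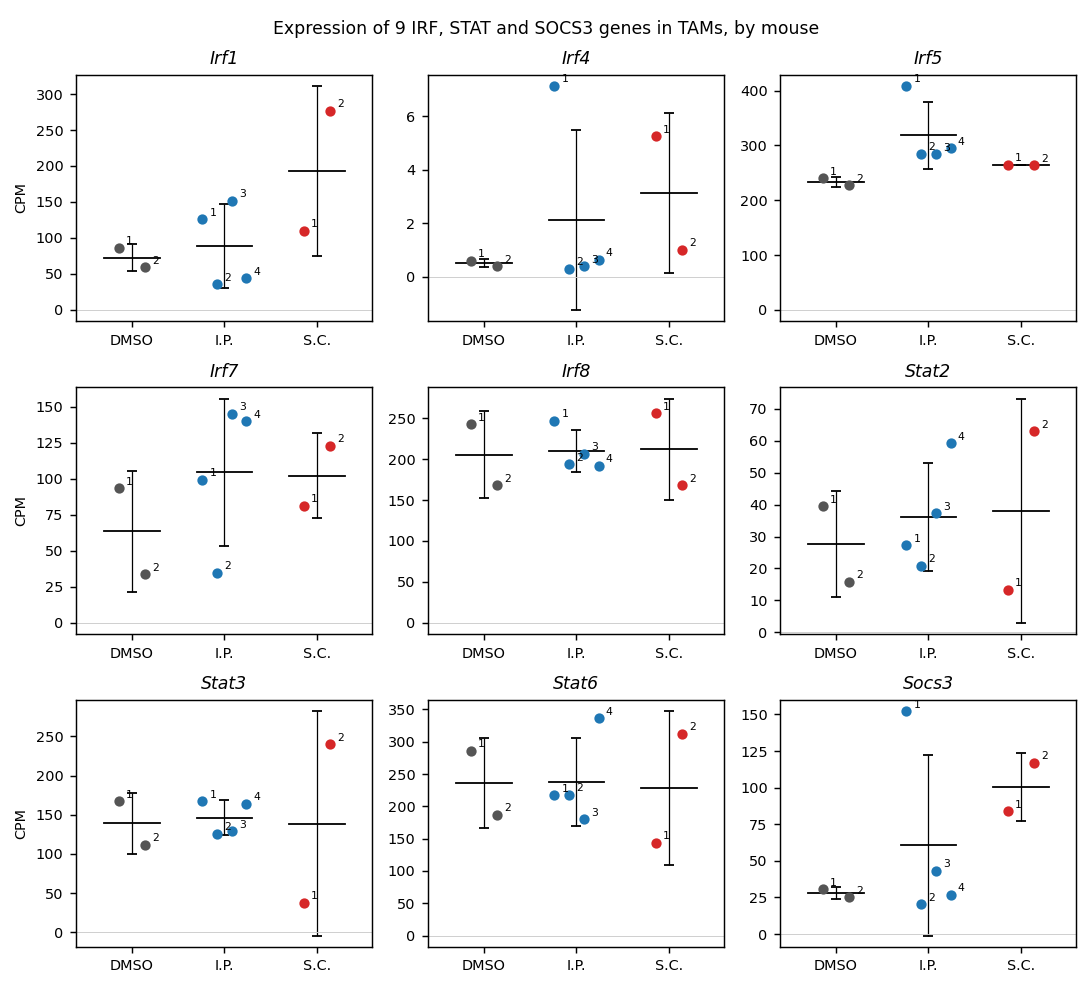
CPM of each of the 9 genes in every mouse (points), with the group mean and SD (line and bar), for DMSO (n = 2), I.P. (n = 4) and S.C. (n = 2) mice. Socs3 is high in both S.C. mice and in I.P. mouse 1, Stat3 is at 37.8 and 240 CPM in the 2 S.C. mice, and Irf8 overlaps between all groups.

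Stat3 (chr11:100885098-100939540, minus strand) differed more between the S.C. mice than the other 2 STAT genes did, 6.35-fold against 4.72-fold for Stat2 and 2.17-fold for Stat6. It was at 167 and 112 CPM in DMSO mice, 167, 126, 129 and 164 CPM in I.P. mice, and 37.8 and 240 CPM in S.C. mice, from 562 and 3298 counts. S.C. mouse 1 was thus the lowest and S.C. mouse 2 the highest of all 8 mice, and Stat3 was the only member for which 1 mouse lay at least 2-fold below all others. The log2 fold change of S.C. over DMSO was -0.03 (SE 0.82), and its 95% interval of -2.06 to 2.0 includes a 4-fold difference either way. It was -1.94 without S.C. mouse 2 and 0.76 without S.C. mouse 1. S.C. over I.P. was -0.08 (SE 0.59), and -1.96 without S.C. mouse 2. In I.P. mice the spread was small, and the log2 fold change over DMSO was 0.06 (SE 0.25, 95% interval -0.50 to 0.63). The log2 ratio of Socs3 to Stat3 CPM was -2.44 and -2.15 in DMSO mice, -0.14, -2.62, -1.58 and -2.59 in I.P. mice, and 1.14 and -1.04 in S.C. mice. Both S.C. mice and I.P. mouse 1 therefore had more Socs3 relative to Stat3 than either DMSO mouse, and so did I.P. mouse 3.

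Stat2 (chr10:128270559-128292849, plus strand), the ISGF3 subunit, was split between the S.C. mice in the same way. It measured 39.4 and 15.9 CPM in DMSO, 27.2, 20.9, 37.3 and 59.2 CPM in I.P., and 13.3 and 62.9 CPM in S.C. mice. Again S.C. mouse 1 was the lowest and S.C. mouse 2 the highest of the 8. The log2 fold change was 0.39 in I.P. (SE 0.49, 95% interval -0.73 to 1.50) and 0.45 in S.C. mice (SE 0.82, 95% interval -1.60 to 2.49) against DMSO. The S.C. value was -1.11 without S.C. mouse 2 and 1.17 without S.C. mouse 1, so its direction depended on which S.C. mouse was kept.

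Stat6 (chr10:127642986-127660957, plus strand) carries the IL-4 and IL-13 signal. Its level was 286 and 187 CPM in DMSO mice, 217, 218, 180 and 336 CPM in I.P. mice, and 144 and 312 CPM in S.C. mice. The groups overlap, and S.C. mouse 1 was once more the lowest of the 8 mice. The log2 fold change over DMSO was 0.00 in I.P. (SE 0.31, 95% interval -0.70 to 0.70) and -0.08 in S.C. mice (SE 0.47, 95% interval -1.24 to 1.09). Without S.C. mouse 2 the S.C. value was -0.78, and without S.C. mouse 1 it was 0.37.

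Irf5 (chr6:29526625-29541871, plus strand) is the IRF that acts downstream of MyD88 and is associated with inflammatory macrophages. It was at 240 and 227 CPM in DMSO mice, 409, 285, 284 and 295 CPM in I.P. mice, and 265 and 264 CPM in S.C. mice. Under TMM scaling the groups did not overlap, with DMSO lowest, S.C. between and I.P. highest. Of all genes tested, 7.32% were higher without overlap in I.P. against DMSO mice, 17.1% in S.C. against DMSO mice, and 10.5% were lower without overlap in S.C. against I.P. mice. No member was lower without overlap in I.P. against DMSO mice, against 6.83% of all genes, or higher without overlap in S.C. against I.P. mice, against 8.05%. The I.P. mean of 318 ± 60.8 CPM (SD, n = 4) was 1.36-fold above the DMSO mean of 233 ± 9.3 CPM (SD, n = 2), a log2 fold change of 0.44 (SE 0.24, 95% interval -0.10 to 0.98, adjusted p = 0.98 by edgeR). It was 0.31 without I.P. mouse 1. S.C. over DMSO gave 0.15 (SE 0.28) and S.C. over I.P. -0.27 (SE 0.26, adjusted p = 0.846), so none of the 3 differences passed the test. Including Irf5, 4 members were higher without overlap in S.C. against DMSO mice under TMM scaling, the others being Irf1, Irf4 and Socs3.

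Irf7 (chr7:141262706-141266481, minus strand) amplifies type I interferon. The values were 93.4 and 33.7 CPM in DMSO mice, 99.2, 34.5, 145 and 140 CPM in I.P. mice, and 81.1 and 123 CPM in S.C. mice. The DMSO mice alone differed 2.77-fold, and the groups overlap. The log2 fold change over DMSO was 0.71 in I.P. (SE 0.59, 95% interval -0.63 to 2.06) and 0.66 in S.C. mice (SE 0.55, 95% interval -0.71 to 2.03). Without DMSO mouse 2 these were 0.16 and 0.09.

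Irf8 (chr8:120736358-120756694, plus strand), the lineage factor, was the steadiest of the 9. It measured 243 and 168 CPM in DMSO mice, 247, 194, 207 and 192 CPM in I.P. mice, and 256 and 168 CPM in S.C. mice. All groups covered nearly the same range. The log2 fold change over DMSO was 0.03 (SE 0.24, 95% interval -0.51 to 0.56) in I.P. and 0.02 (SE 0.37, 95% interval -0.89 to 0.93) in S.C. mice. These directions turned with library size as the only scaling, to -0.04 and -0.13, where the median of all genes was itself -0.05 and -0.13.

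Irf4 (chr13:30749226-30766976, plus strand) was near the limit of detection. It had 9 and 7 counts in DMSO mice, 112, 5, 7 and 11 counts in I.P. mice, and 78 and 14 counts in S.C. mice, or 0.611 and 0.402, 7.14, 0.304, 0.395 and 0.642, and 5.25 and 1.02 CPM. A floor of 3 counts corresponds to 0.169 to 0.219 CPM in these libraries, for counting error only. I.P. mouse 1 and S.C. mouse 1 stood above the other 6 mice, and both S.C. mice above both DMSO mice. In both comparisons with DMSO, Irf4 reached the minimum count of 10 for testing only in treated mice. The log2 fold change was 2.58 in S.C. (SE 1.26, 95% interval -0.53 to 5.70, adjusted p = 0.99) and 2.03 in I.P. mice (SE 1.43, 95% interval -1.23 to 5.29, adjusted p = 0.98). Without S.C. mouse 1 the S.C. value was 0.98, without S.C. mouse 2 it was 3.30, and leaving out I.P. mouse 1 took the I.P. value to -0.17. S.C. over I.P. was 0.57, and 2.79 and called without I.P. mouse 1 (unadjusted P = 0.0297). IRF4 is abundant in plasma cells and activated T cells too, and the B and plasma cell list summed to 51.9 CPM in I.P. mouse 1 and 63.8 CPM in S.C. mouse 1, within the range of 38.6 to 90.2 CPM over all 8 mice. The T and NK cell list summed to 1.91 CPM in the former and 52.4 CPM in the latter, and its part in the Irf4 level was not tested.

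For 4 members the annotation has a gene on the other strand that overlaps an end, Tnpo3 for Irf5 (1045 bases), Phrf1 for Irf7 (45), Stat5a for Stat3 (72) and Nab2 for Stat6 (40). Reads from these stretches cannot be told apart where strand was not used in counting, and the setting is not given in the sources used here.

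The ligands of the pathway were next compared, from lists written with earlier results of these data known. Over all genes tested, 2.29% were called higher and 2.77% lower in S.C. against DMSO mice. In I.P. against DMSO mice these shares were 1.53% and 0.468%. They stand beside the number called in every list below. Of 6 cytokines that act through STAT3, 4 were tested in S.C. against DMSO mice. All 4 were called higher, Il10, Osm, Lif and Csf3, with a median log2 fold change of 2.50. In this pair Lif and Csf3 reached the minimum count of 10 for testing only in the S.C. mice, where they were higher. Their part in the number called and in the median is therefore set by the filter. Il10, an anti-inflammatory cytokine, was at 8.14 and 4.54 CPM in DMSO, 13, 5.35, 6.66 and 2.92 CPM in I.P. and 19.9 and 31 CPM in S.C. mice, a log2 fold change of 1.98 in S.C. against DMSO mice (SE 0.57, unadjusted P = 0.0144, adjusted p = 0.747). Osm, which encodes oncostatin M, was at 30.5 and 48.5, 109, 35.5, 32.3 and 34.6, and 106 and 186 CPM in the same order (S.C. against DMSO log2 1.86, SE 0.44, unadjusted P = 0.0066, adjusted p = 0.747, or 0.0245 by the likelihood ratio test and 0.0157 by DESeq2). Both genes were highest in the S.C. mice, apart from Osm in I.P. mouse 1, which lay just above S.C. mouse 1.

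Lif had 7 and 9 counts in DMSO mice, 16, 8, 3 and 8 in I.P. mice, and 93 and 29 in S.C. mice. Csf3, which encodes G-CSF, had 0 and 2 counts in DMSO mice, 25, 1, 2 and 0 in I.P. mice, and 83 and 36 in S.C. mice (adjusted p = 0.747 by edgeR's quasi-likelihood test, 0.0332 by its likelihood ratio test and 0.0992 by DESeq2). Both thus had under 10 counts in each DMSO mouse and at least 29 in each S.C. mouse. Leaving out either DMSO mouse left 1 of these cytokines called (Osm), and leaving out S.C. mouse 1 or 2 left 4 or 5 called. In I.P. against DMSO mice 2 of the 6 could be tested and 0 were called.

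The genes that carry the signal from ligand to factor came next. Of 13 cytokine receptor chains tested, 1 was called in I.P. against DMSO mice, Il2rg, the common gamma chain through which IL-4 signals (126 ± 49 against 259 ± 166 CPM, log2 -1.04, SE 0.43, unadjusted P = 0.0399), and 0 in S.C. against DMSO mice. The Il2rg call rested on DMSO mouse 1, at 376 CPM against 142 CPM in DMSO mouse 2, and without it the log2 fold change was -0.17. It was also lost without I.P. mouse 1, 2 or 4 (-0.88, -0.97 and -0.99). Of the 4 JAK kinases, 7 other IRF and STAT genes, 16 other SOCS genes, PIAS genes and phosphatases, 16 adaptors and kinases upstream of IRF3, IRF5 and IRF7, and 8 partners of IRF4 and IRF8 tested, 0 were called in either comparison with DMSO. Their medians in S.C. against DMSO mice were -0.44, 0.17, -0.20, -0.11 and 0.19 on the log2 scale, and in I.P. against DMSO mice -0.12, -0.19, -0.10, 0.02 and -0.01.

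Some of these genes had wide intervals rather than steady levels. Cish, a STAT5-induced inhibitor of the SOCS family, was at 4.61 and 5.28 CPM in DMSO, 0.383, 1.03, 3.84 and 1.46 CPM in I.P., and 7.07 and 26.7 CPM in S.C. mice. Its groups did not overlap, and S.C. over I.P. was called (log2 3.32, SE 0.88, unadjusted P = 0.00506, adjusted p = 0.329, or 0.0194 by the likelihood ratio test and 0.0214 by DESeq2). Without S.C. mouse 2 this value was 2.06 (unadjusted P = 0.0803) and no longer called. Stat5a was at 6.14 ± 1.68 CPM in S.C. against 13.3 ± 1.52 CPM in DMSO mice (SD, n = 2 each, log2 -1.14, SE 0.58, unadjusted P = 0.0977), and Stat5b at 23.9 ± 8.31 against 39.1 ± 3.89 CPM (log2 -0.73, SE 0.42, unadjusted P = 0.134).

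Among 19 genes known as STAT3 targets, all tested, 5 were called higher and 0 lower in S.C. against DMSO mice. Of all genes, 2.29% were called higher and 2.77% lower there. The median log2 fold change of the list was 0.68. The 5 called genes were Socs3, Junb, Fos, Nfil3 and Il10, of which Socs3 is a member and Il10 a ligand counted above. Junb and Fos encode AP-1 subunits that many signals other than STAT3 induce, and Nfil3 encodes a basic leucine zipper repressor. Junb rose from 219 ± 111 to 1290 ± 264 CPM (SD, n = 2 each, log2 2.54, SE 0.47, unadjusted P = 0.00193), Fos from 296 ± 210 to 1470 ± 351 CPM (log2 2.29, SE 0.58, unadjusted P = 0.00873) and Nfil3 from 32.1 ± 3.11 to 132 ± 21.4 CPM (log2 2.02, SE 0.33, unadjusted P = 0.00109). Their adjusted p-values were 0.747, 0.747 and 0.746 by edgeR's quasi-likelihood test, 4.28e-04, 0.0204 and 7.81e-04 by its likelihood ratio test, and 7.86e-06, 0.00348 and 9.57e-05 by DESeq2. I.P. mouse 1 was at 1590, 1670 and 98 CPM for the same genes, above the other I.P. mice at 155 to 239, 169 to 264 and 24.7 to 33.5 CPM. Fos was not called with all 3 groups in 1 fit (log2 2.31, unadjusted P = 0.0599). The list held 3 to 6 genes called higher under the alternatives.

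In I.P. against DMSO mice 1 of the 19 was called higher, Saa3, an acute-phase gene. Its level was 0.339 and 2.7 CPM in DMSO mice and 81.4, 1.7, 7.96 and 13.7 CPM in I.P. mice (log2 4.05, SE 1.56, unadjusted P = 0.0301, adjusted p = 0.98). I.P. mouse 2 lay within the DMSO range, and without DMSO mouse 1 the call was lost (log2 3.27).

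**Figure D4:**
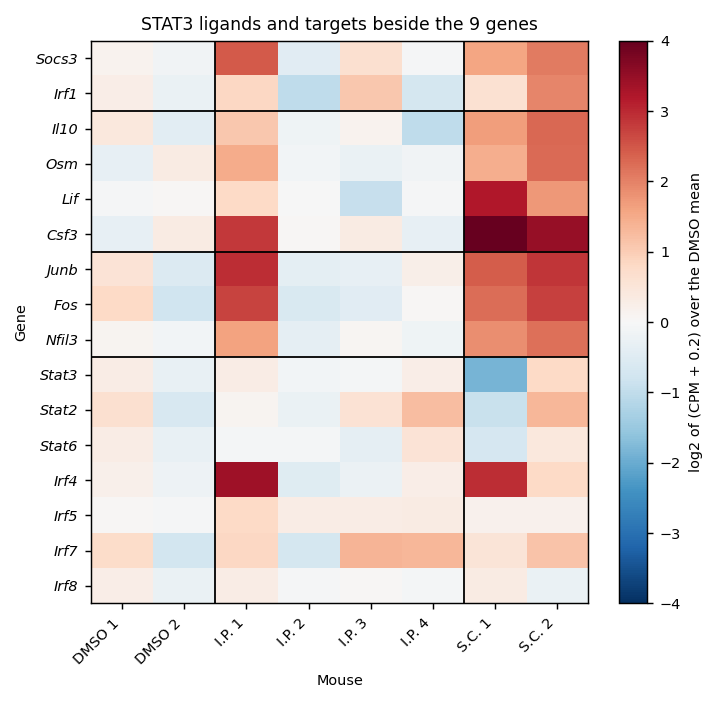
Log2 of (CPM + 0.2) of the STAT3 ligands and targets called in S.C. against DMSO mice and of the 9 genes in each mouse (columns), relative to the mean of the DMSO mice, with colours ending at -4 and 4. S.C. mice 1 and 2 and I.P. mouse 1 are red for Socs3, Junb, Fos, Nfil3 and Osm, and S.C. mouse 1 is blue for Stat3.

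The STAT6 targets, markers of alternatively activated macrophages among them, were called in both directions. In I.P. against DMSO mice 3 of 15 tested were called lower and 0 higher, against 0.468% and 1.53% of all genes. The 3 were Mgl2, which encodes a galactose-type lectin, Ccl24, an eotaxin, and Ch25h, which encodes cholesterol 25-hydroxylase. Mgl2 was at 49.7 and 39.6 CPM in DMSO, 5.04, 11.3, 8.02 and 10.7 CPM in I.P. and 34.3 and 30 CPM in S.C. mice. All 4 I.P. mice lay below all others, with a log2 fold change over DMSO of -2.35 (SE 0.34, unadjusted P = 8.61e-05, adjusted p = 0.751) and a log2 S.C. over I.P. of 1.87 (SE 0.41, adjusted p = 0.273). These adjusted p-values are from the quasi-likelihood test, and they were 1.24e-05 and 0.0082 by the likelihood ratio test and 2.79e-05 and 0.00854 by DESeq2. Both Mgl2 calls held without any single mouse. The monocyte marker Ccr2 was likewise below the other groups in all 4 I.P. mice (log2 -2.39 against DMSO, SE 0.36, unadjusted P = 1.23e-04), and its part in the Mgl2 level was not tested. Ch25h was at 46.5 ± 29 CPM (SD, n = 4) against 129 ± 28.6 CPM (SD, n = 2, log2 -1.47, SE 0.52, unadjusted P = 0.021), and it was not called without DMSO mouse 2 (-1.22) or I.P. mouse 4 (-1.38). Ccl24 was at 3.87 and 31.6 CPM in the DMSO mice, and without the higher of them, DMSO mouse 2, its log2 fold change turned from -1.92 to 0.29. Its call was also lost without I.P. mouse 2, 3 or 4 (-1.69, -1.79 and -1.71).

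In S.C. against DMSO mice 3 of 14 STAT6 targets were called higher, Klf4, Egr2 and Flt1, and 1 lower, Mrc1, which encodes the mannose receptor CD206. Klf4, a zinc finger factor that is also on the IRF8 target list, was at 3.94 and 6.72 CPM in DMSO, 149, 4.14, 4.06 and 7.88 CPM in I.P. and 49.4 and 27.7 CPM in S.C. mice (S.C. against DMSO log2 2.82, SE 0.55, unadjusted P = 0.00264). Its adjusted p was 0.747 by the quasi-likelihood test, 0.00528 by the likelihood ratio test and 0.00162 by DESeq2, and it was not called with all 3 groups in 1 fit (log2 2.85, unadjusted P = 0.114). Egr2 was at 68.7 and 41.9 CPM in DMSO and 84.8 and 288 CPM in S.C. mice (log2 1.73, SE 0.64, unadjusted P = 0.038), and it was not called without S.C. mouse 2 (log2 0.56) or DMSO mouse 2 (log2 1.41). Flt1 had 13 and 2 counts in DMSO and 94 and 83 counts in S.C. mice, and was not called without DMSO mouse 1 or 2 (unadjusted P = 0.0672 and 0.239). Mrc1 was at 371 ± 142 against 760 ± 202 CPM (SD, n = 2 each, log2 -1.06, SE 0.41, unadjusted P = 0.043), and it was not called without S.C. mouse 1 (log2 -0.72) or DMSO mouse 2 (log2 -0.76).

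The targets of ISGF3, of which STAT2 is a subunit and Irf7 and Stat2 are themselves listed, were called in 0 of 21 in I.P. against DMSO mice. In S.C. against DMSO mice 1 of 21 was called, Mx2, lower, with 31 and 26 counts in DMSO and 0 and 2 counts in S.C. mice. In this pair Mx2 reached the minimum count of 10 for testing only in the DMSO mice. The Mx2 call was lost without DMSO mouse 1 or 2 (unadjusted P = 0.335 and 0.265) and with DESeq2 (0.0555). Ifit1 and Isg15, typical of the list, were at 94.8 and 33.6 and at 41.7 and 19.5 CPM in the DMSO mice, so that DMSO mouse 1 was above DMSO mouse 2 for these genes as for Irf7 and Stat2. Of the IRF1 targets, 1 of 16 was called in each comparison with DMSO, Il18bp, which encodes the IL-18 binding protein, higher in both. It was at 63.7 and 26.6 CPM in DMSO, 119, 59.9, 204 and 67.6 CPM in I.P. and 121 and 180 CPM in S.C. mice, with log2 fold changes of 1.31 (SE 0.57, unadjusted P = 0.047) and 1.72 (SE 0.51, unadjusted P = 0.017). I.P. mouse 2 lay within the DMSO range. Without DMSO mouse 2 neither call held (0.82 and 1.21), and the I.P. call was also lost without I.P. mouse 1 (1.30) or 3 (0.85).

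Of 9 IRF8 targets tested, 1 was called lower in I.P. against DMSO mice, Ctsc, which encodes cathepsin C (1920 ± 919 CPM, n = 4, against 4510 ± 2610 CPM, n = 2, mean ± SD, log2 -1.23, SE 0.50, unadjusted P = 0.0358), and 1 higher in S.C. against DMSO mice, Klf4. The Ctsc call was lost without DMSO mouse 1 (-0.47), I.P. mouse 1 (-0.98) or I.P. mouse 4 (-1.13).

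The genes with the most similar profile to each member over the 8 mice were found by Pearson's r of log2 CPM, among 9327 genes whose mean was 5 CPM or more, 9328 for Irf4. The 8 mice include all 3 treatments, and mice that stand apart weigh heavily in these values, which describe these libraries alone. For Socs3 they were 1300002E11Rik, Rgs2 and Nfkbia (r = 0.98 each), of which Nfkbia encodes an inhibitor of NF-kB. For Irf1 they were D14Abb1e (0.96), Fxr1 and Sh2d1b1 (0.94 each). For Stat3 they were Larp4b and Cpsf6 (0.99) and AI314180 (0.98), for Stat2 Macf1 (0.99), Tgfbr1 (0.97) and Cd244 (0.96), and for Stat6 Slc36a4 and Fam222b (0.98 each). Irf7 was nearest to Ms4a4c (0.97), Phf11a (0.92) and Ifi204 (0.91), of which Ifi204 is an interferon-inducible gene. Irf5 was nearest to Rnh1 and Zfyve19 (0.97) and Plbd2 (0.96), Irf8 to A430005L14Rik (0.96), Timm23 and Scarb1 (0.95), and Irf4 to Trappc6a, Jund and Zfp36l2 (0.99 each).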

How the data were processed

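RNA-seq counts of TAMs from 8 mice were used, grouped by the treatment in their labels. The counts were deposited by the authors as whole numbers per gene, not normalized, on mm10. Per the paper's methods, reads were aligned with bowtie2 and counted with RSEM, whereas the submitters' processing notes name TopHat2 and edgeR. Whether strand was used is not given in the sources used here.

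The tools were edgeR 4.0.16, DESeq2 1.42.0 and limma 3.58.1, run in R 4.3.3. Genes passing filterByExpr (minimum count 10, minimum total count 15) were scaled by TMM, and each pair of groups was fitted alone by the two-sided quasi-likelihood test, with Benjamini-Hochberg adjustment over all genes tested. Intervals are 95% intervals from the test's degrees of freedom. Replicates are separate mice, and no pair of them agreed within sampling noise (chi-square per degree of freedom 50.5 to 177). Log2 CPM used a prior count of 2. Exon lengths and gene positions are from GENCODE vM21 (GRCm38), in which 93.0% of the symbols were found, and promoter sequences are from RefSeq.

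The members and gene lists were chosen with earlier results of these data known. All 9 members are named, with every called gene of each list in a comparison with DMSO, or, where none was called, the 2 of smallest P (not all of them are discussed), and the 3 genes with the profile most like each member. Values of 2 genes under this rule or on the lists are not reported here. Same-numbered mice did not vary together (correlations of deviations -0.187 to 0.169), and no block was used. The procedure was tested on simulated data. Settings varied 1 at a time were the gene filter (none, or 1 CPM in 2 samples), the scaling (RLE or library size), the test (likelihood ratio or DESeq2), the groups in the fit (all 3), a replicate block, each mouse left out in turn, and the longest transcript as length.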

Additional observations from a re-analysis of the deposited data

Results flagged for a closer look

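In I.P. mouse 1, several genes lay far from the other 3 I.P. mice, by a gap test on 4 values (Dixon, 95%), which chance passes in about 1 of 20 groups. It was passed for 14 of 40 genes tested, the highest mouse being I.P. mouse 1 in 12 of them. The 40 genes share the same 4 mice, and many were named for calls in these data. The rate for 1 group therefore cannot be set against this number. Among the members these were Irf4, at 7.14 CPM against 0.304 to 0.642, and Irf5, at 409 against 284 to 295 CPM. Among cytokines and early genes they were Osm (109 against 32.3 to 35.5 CPM), Csf3 (1.59 against 0 to 0.113), Junb (1590 against 155 to 239), Fos (1670 against 169 to 264), Nfil3 (98 against 24.7 to 33.5) and Klf4 (149 against 4.06 to 7.88). The others were Cebpb, a C/EBP family factor (762 against 198 to 210), Saa3 (81.4 against 1.7 to 13.7), Ccl24 (10.7 against 2.45 to 3.33) and Slc15a4, an endolysosomal transporter (89 against 64.1 to 66.9). In I.P. mouse 3, Batf2 was at 15.2 CPM against 4.32 to 6.12, and Flt1 at 1.35 against 0.0584 to 0.243. The Socs3 level of 152 CPM in I.P. mouse 1, against 20.4 to 43.2 CPM in the others, did not pass this test.

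Among the named genes, 13 differed between S.C. and I.P. mice at an unadjusted P under 0.05 with at least 2-fold. None of them passed adjustment by edgeR's quasi-likelihood test, and route and dose cannot be told apart. On the log2 scale S.C. minus I.P. gave 1.87 for Il10 (adjusted p = 0.398), 1.47 for Osm (0.492), 2.95 for Lif (0.44), 1.26 for Ebi3 (0.412), 1.18 for Il2rg (0.374), 3.32 for Cish (0.329), 1.52 for Nfil3 (0.489), 1.87 for Mgl2 (0.273), 1.42 for Egr2 (0.492), 3.76 for Flt1 (0.399) and 1.09 for Ctsc (0.532). It gave -3.35 for Saa3 (0.571) and -5.84 for Mx2 (0.346), the last from counts of 0 and 2 in the S.C. mice. For Saa3 and Mx2 the I.P. mice were the higher group. By edgeR's likelihood ratio test and by DESeq2 the adjusted p was 0.0194 and 0.0214 for Cish, 0.0082 and 0.00854 for Mgl2, and 0.0173 and 0.0069 for Mx2. The calls of Mgl2 and Il2rg held without any single mouse, as did those of Mx2 and Flt1, which the filter favoured. Without S.C. mouse 2 the call was lost, with these log2 S.C. over I.P. values, for Il10 (1.50), Osm (unadjusted P = 0.171), Cish (2.06), Nfil3 (1.34), Egr2 (0.28), Saa3 (-2.93) and Ctsc (0.97), and without S.C. mouse 1 for Lif (1.97), Ebi3 (0.67), Saa3 (-3.96) and Ctsc (1.19). Without an I.P. mouse it was lost for Osm without mouse 2, 3 or 4 (1.31, 1.27 and 1.30), Nfil3 without mouse 3 or 4 (1.37 and 1.34), Egr2 without mouse 2 or 3 (1.29 and 1.21), Saa3 without mouse 1 or 4 (-1.60 and -3.57) and Ctsc without mouse 1 or 4 (0.84 and 0.98).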

How the results depend on the processing

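For I.P. against DMSO mice 243 genes were called, 160 with all 3 groups in 1 fit and 116 to 361 with 1 mouse left out. For S.C. against DMSO mice 591 were called, 113 to 3432 with 1 mouse left out, and for S.C. against I.P. mice 860, 391 with the replicate block and 632 to 2115 with 1 mouse left out. With 1 mouse in a group its spread is taken from the other group. Of the members, 2 were called in S.C. against DMSO mice, 1 with library size only, 0 with all 3 groups in 1 fit, and 1 to 4 with 1 mouse left out, the 4 being 2 higher and 2 lower without S.C. mouse 2. In S.C. against I.P. mice 0 members were called, and 0 to 2 with 1 mouse left out. In I.P. against DMSO mice 0 were called under every alternative tried. The replicate block left 429 genes and 2 members called in S.C. against DMSO mice. With its numbers crossed, chosen after seeing the data, it gave 475 genes and 2 members. The block turned Irf1 to -0.11 and Stat2 to -0.08 in I.P. against DMSO mice, and Irf7 to 0.77 and Irf8 to -0.08 in S.C. against I.P. mice. Library size alone turned Irf8 to -0.04, -0.13 and -0.09 in I.P. against DMSO, S.C. against DMSO and S.C. against I.P. mice, and Stat2 to -0.05 in the last. With 1 mouse left out the direction turned, within these ranges of log2 fold change, in I.P. against DMSO mice for Irf1 (-0.10 to 0.59), Irf4 (-0.17 to 2.41), Irf8 (-0.21 to 0.32), Stat2 (-0.13 to 1.18) and Stat3 (-0.19 to 0.38). In S.C. against DMSO mice it turned for Irf8 (-0.32 to 0.29), Stat2 (-1.11 to 1.24), Stat3 (-1.94 to 0.76) and Stat6 (-0.78 to 0.37). In S.C. against I.P. mice it turned for Irf4 (-1.04 to 2.79), Irf7 (-0.37 to 0.23), Irf8 (-0.32 to 0.28), Stat2 (-1.44 to 0.80), Stat3 (-1.96 to 0.71) and Stat6 (-0.73 to 0.39). For Ccl24 it turned in I.P. against DMSO mice (-2.74 to 0.29). The cause was not tested. Socs3 in S.C. against DMSO mice lay between 1.53 and 2.04 with 1 mouse left out. With library size only, Irf5 in S.C. against DMSO mice fell to 0.00 and Stat3 in I.P. against DMSO mice to -0.00. Stat6 in I.P. against DMSO mice was at 0.00, and between -0.27 and 0.34 with 1 mouse left out. Apart from these, the other values of the members kept their direction. With 2 DMSO and 2 S.C. mice, the precision is set by the number of mice rather than by depth, except for Irf4, Lif, Csf3, Flt1 and Mx2, which rest on few counts.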
